A study of Mus musculus with 4 samples.

Results

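The genes described here are the mouse MHC class II genes of the H2 complex with Cd74 and Ciita, 10 genes in all, chosen by name from the 27179 genes of the expression table. They are H2-Aa, H2-Ab1 and H2-Eb1, which encode presenting chains, H2-DMa, H2-DMb1 and H2-DMb2, which encode the peptide editor DM, H2-Oa and H2-Ob, which encode its inhibitor DO, the invariant chain gene Cd74, and the coactivator gene Ciita. All 10 were found in the table. RNA was sequenced from 2 B7-H4-null and 2 wild-type samples of C57BL/6 bone marrow from a mouse model of acute myeloid leukemia (AML). All 4 samples were sorted for a yellow fluorescent protein (YFP), for Mac-1, an adhesion receptor of myeloid cells, and for the stem cell factor receptor c-Kit, and are labelled LSC, leukemia stem cells. Vtcn1 encodes B7-H4, a surface ligand known for holding back T cells. The labels give neither the oncogene of the model, nor the age of the mice, nor whether cells of several mice were pooled.

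An MHC class II molecule is a pair of an alpha and a beta chain that shows peptides from endosomes to CD4+ T cells. The invariant chain fills the groove of a newly made pair and leads it to the endosome, DM then exchanges the remaining fragment for a peptide, and DO holds DM back. Class II promoters carry a conserved X box and Y box, bound by RFX, CREB and NF-Y, and the coactivator encoded by Ciita docks on these factors without binding DNA itself. High class II expression is known from B cells, dendritic cells and activated macrophages, and B7-H4 and class II meet in the same setting, the contact of a presenting cell with a T cell.

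The promoters show what most of these genes have in common. The stretches below are shown because they hold the Y box, searched as TGATTGG, and, where present, the X box, searched as AAC, any 2 bases and then ATGATG. Both patterns were searched on both strands from 250 bases before to 50 bases after each annotated start, and were written with class II promoters in view. RefSeq sequences on GRCm38.p6 were used, 6 members had a window with 1 Y box, and each stretch runs 5′ to 3′ on the gene's strand with the matches in capitals.
H2-DMb1, chr17:34153083-34153144, plus strand: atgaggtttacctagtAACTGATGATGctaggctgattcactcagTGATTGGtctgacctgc
H2-DMb2, chr17:34145112-34145173, plus strand: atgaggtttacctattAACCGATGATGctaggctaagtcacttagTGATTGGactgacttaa
H2-Ob, chr17:34238801-34238862, plus strand: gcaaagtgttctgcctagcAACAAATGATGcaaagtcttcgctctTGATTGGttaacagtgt
H2-Eb1, chr17:34305761-34305822, plus strand: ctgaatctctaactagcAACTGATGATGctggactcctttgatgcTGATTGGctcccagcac
H2-Aa, chr17:34287857-34287918, minus strand: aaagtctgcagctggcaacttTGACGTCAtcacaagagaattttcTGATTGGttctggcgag
H2-Oa, chr17:34092289-34092350, plus strand: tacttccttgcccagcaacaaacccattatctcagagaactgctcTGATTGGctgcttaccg

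The Y box began 45 to 92 bases before the annotated start in these 6 promoters. In H2-DMb1, H2-DMb2, H2-Ob and H2-Eb1 the X box pattern ended 15 to 18 bases upstream of it. In H2-Aa the strict X box pattern was not in the window, and a CREB element, TGACGTCA, stood in that place, also in capitals. The Y box pattern was in 7.82% of all 32851 promoter windows, the X box pattern in 0.137%, the CREB element in 1.79%, and X and Y box patterns together in 9 windows of 7 genes, of which 4 are H2-DMb1, H2-DMb2, H2-Ob and H2-Eb1. The 2 windows of H2-DMa, from 34122582 to 34122881 and from 34125268 to 34125567, held none of the 3 patterns. Both lie inside the span of the gene, 34119693 to 34139101. The start of that span and any other start of H2-DMa were not searched. No promoter of H2-Ab1, Cd74 or Ciita is shown. A match describes letters and not binding.

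The totals behind the values were 9419425 to 10814448 reads per library. Of the sort markers, Kit stood at 11.02 and 9.37 RPKM (reads scaled to gene length and library total) in the B7-H4-null libraries and at 24.01 and 7.19 RPKM in the wild-type libraries, and Itgam and Itgb2, the chains of Mac-1, were above 50 RPKM in every library. Vtcn1 had 1 read in each B7-H4-null library and 0 reads in both wild-type libraries, so the genotype labels could not be checked on it at this depth. Neutrophil genes stood apart between the genotypes: each of the 11 listed lay lower in B7-H4-null, in both libraries, as did 28.0% of all tested genes. With limma 0 of the 11 passed, while 10 had an unadjusted p under 0.05 as lower, against 7.20% of all tested genes. Their median log2 difference was −1.37, against −0.09 for all tested genes. Their summed levels were 6735 and 8410 RPKM in B7-H4-null against 23350 and 13704 RPKM in wild type. The part of neutrophil genes in the values below was not tested.

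H2-DMa and H2-DMb1, of the peptide editor DM, had the highest levels of the 10 genes, followed by H2-Ab1, H2-Oa and H2-DMb2. H2-Ob, H2-Aa and Cd74 averaged 1.88, 1.33 and 1.005 RPKM over the 4 libraries. H2-Eb1 had 3 to 6 reads per library and Ciita 0 to 2. DM genes made up 79.8% and 83.5% of the summed RPKM of the 10 genes in the B7-H4-null libraries and 82.5% and 81.7% in the wild-type libraries. In bulk RNA, few cells with much of a transcript and many cells with little of it cannot be told apart.

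**Figure D1:**
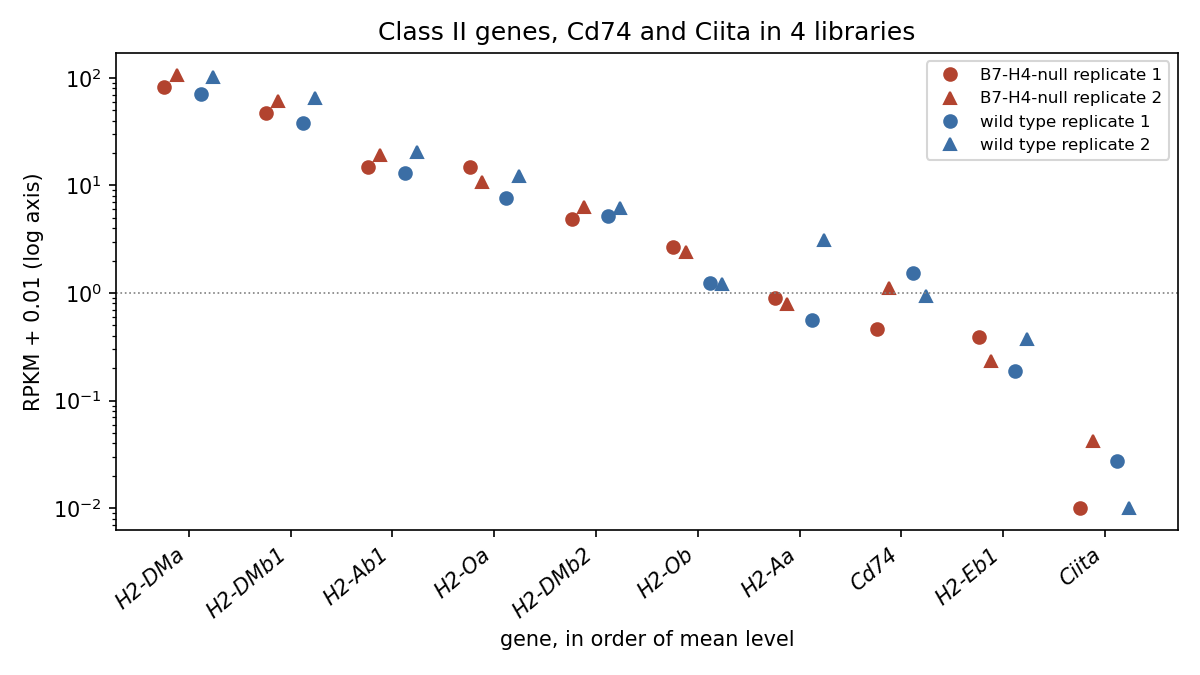
RPKM plus 0.01 on a log axis for the 10 genes in order of mean level, with B7-H4-null libraries in red left of wild-type libraries in blue, circles for replicate 1 and triangles for replicate 2; the dotted line marks 1 RPKM. H2-DMa reached 70.8 to 107 RPKM, while Ciita stayed at 0 to 0.0325 RPKM.

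H2-DMa (gene ID 14998, on chromosome 17 from 34119693 to 34139101 on GRCm38.p6, as for all genes here), the alpha chain of DM, had the highest level of the 10 genes. It stood at 82.2 and 107 RPKM in B7-H4-null replicates 1 and 2, against 70.8 and 101 RPKM in wild type replicates 1 and 2, and its mean lay above that of 91.7% of the 12107 genes tested. Replicate 2 was the higher library in both genotypes, and the genotypes overlapped. The log2 difference, B7-H4-null minus wild type on the log2(RPKM + 1) scale, was 0.14 ± 0.294 (SE, n = 2 each, adjusted p = 0.872, limma across all tested genes), with a 95% interval of −0.56 to 0.85.

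H2-DMb1 (gene ID 14999, on chromosome 17 from 34153191 to 34160229), a beta chain of DM, followed with 47.4 and 60.6 RPKM in B7-H4-null and 38.2 and 64.8 RPKM in wild type. It was below H2-DMa and above every other member in each of the 4 libraries. H2-DMb2 (gene ID 15000, on chromosome 17 from 34143229 to 34151553), the neighbouring copy of the beta chain gene, had 4.86 and 6.35 RPKM in B7-H4-null and 5.14 and 6.15 RPKM in wild type. Of all stretches of 50 bases in the H2-DMb2 transcript, 26.8% also occur in transcripts of H2-DMb1, and 32.8% in those of any other gene. Of the stretches in the H2-DMb1 transcript, 27.2% also occur in transcripts of H2-DMb2. The treatment of reads that match more than 1 gene was not given in the sources used here. The levels of the pair are uncertain to that extent, and H2-DMb1 was 7.44 to 10.5 times as high as H2-DMb2. Both genes overlapped between genotypes, with log2 differences of 0.10 and −0.01 and 95% intervals of −0.67 to 0.88 and −0.64 to 0.62. The sign for H2-DMb2 was positive, at 0.07, after median-ratio scaling and, at 0.09, after quantile normalization.

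The chains of DM kept a nearly fixed proportion. H2-DMa over the sum of H2-DMb1 and H2-DMb2 was 1.57 and 1.59 in the B7-H4-null libraries and 1.63 and 1.43 in the wild-type libraries, a narrower spread than the 1.51-fold span of H2-DMa itself. The genotypes overlapped in this ratio.

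DO was represented by both chains at lower levels. H2-Oa (gene ID 15001, on chromosome 17 from 34092379 to 34095234), its alpha chain, had 15.0 and 10.7 RPKM in B7-H4-null and 7.71 and 12.3 RPKM in wild type. B7-H4-null replicate 1 was the highest and wild type replicate 1 the lowest library, so the genotypes overlapped, with a log2 difference of 0.34 ± 0.314 (SE, adjusted p = 0.695, limma). Leaving out wild type replicate 1 gave 0.04. On 321 of its 1088 exon bases in GENCODE vM21, H2-Oa overlaps BC051537 on the opposite strand, and the library kit does not mark strand. BC051537 had 5.03 and 1.55 RPKM in B7-H4-null and 1.36 and 1.81 RPKM in wild type, also with its highest value in B7-H4-null replicate 1, and the share of H2-Oa reads that came from it was not tested.

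H2-Ob (gene ID 15002, on chromosome 17 from 34238905 to 34245908), the beta chain of DO, was the only member whose genotypes did not overlap. It had 2.66 and 2.42 RPKM in B7-H4-null, or 67 and 70 reads, against 1.22 and 1.21 RPKM in wild type, or 33 and 32 reads. Both B7-H4-null libraries stood above both wild-type libraries, and replicates of a genotype lay close together. Per total, B7-H4-null had 2.09 times as many reads, with exact 95% bounds of 1.55 and 2.85, which covers counting error only. The log2 difference was 0.68 ± 0.259 (SE, 95% interval 0.06 to 1.30, unadjusted p = 0.0359, limma) and did not pass over all genes (adjusted p = 0.371). Without any 1 library it was 0.63 to 0.73, with an unadjusted p of 0.0742 to 0.111, and over all alternatives tried its adjusted p was 0.240 to 0.873.

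Of the 7 tested members, 1 had both B7-H4-null values above both wild-type values, and 0 had both below. Over all 12107 tested genes these shares were 16.0% and 28.0%, so 1 in 7 is near the background. With limma 0 of the 7 members passed in either direction, against 0.0991% of all tested genes, of which 0.0413% passed as higher and 0.0578% as lower. Limma gave 1 member, H2-Ob, an unadjusted p under 0.05 as higher and 0 as lower, against 5.05% and 7.20% of all tested genes. Limma's voom on reads recovered from the values also called 0 members and counted 1 at an unadjusted p under 0.05. The median log2 difference of the 7 tested members was 0.10, against −0.09 for all tested genes, and its sign depended on single libraries. Leaving out B7-H4-null replicate 1 gave a median of 0.21 and leaving out replicate 2 of that genotype −0.07. In wild type, leaving out replicate 1 gave −0.12 and leaving out replicate 2 gave 0.40.

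**Figure D2:**
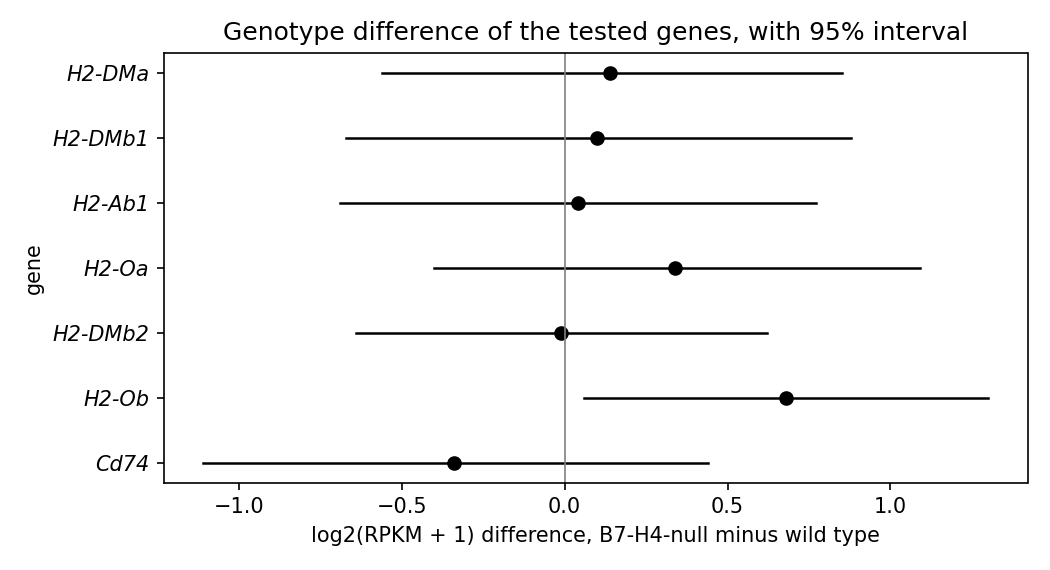
Log2(RPKM + 1) difference, B7-H4-null minus wild type, of the 7 tested genes (points) with the 95% interval from limma (lines). The interval of H2-Ob runs from 0.06 to 1.30, and those of the other genes include 0.

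The proportions of H2-Ob to its partners were also compared. H2-Oa over H2-Ob was 5.62 and 4.40 in B7-H4-null, against 6.32 and 10.2 in wild type. H2-DMb1 over H2-Ob was 17.8 and 24.98 in B7-H4-null, against 31.4 and 53.7 in wild type. Each ratio lay lower in B7-H4-null, without overlap, and both share the H2-Ob value. These ratios were not tested. H2-DMa over H2-Oa, which leaves H2-Ob aside, was 5.49 and 10 in B7-H4-null and 9.19 and 8.24 in wild type and overlapped.

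Of the presenting chains, only the beta chain gene H2-Ab1 was well expressed. H2-Ab1 (gene ID 14961, on chromosome 17 from 34263227 to 34269418) had 14.8 and 19.1 RPKM in B7-H4-null and 12.97 and 20.6 RPKM in wild type, or 413 and 401 reads per genotype. Replicate 2 was again the higher library in both genotypes, and the means, 17.0 ± 3.09 and 16.8 ± 5.39 RPKM (SD, n = 2 each), were closer than the replicates. The log2 difference was 0.04 (adjusted p = 0.974, limma) with a 95% interval of −0.69 to 0.77.

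H2-Aa (gene ID 14960, on chromosome 17 from 34282744 to 34287823), whose alpha chain pairs with the product of H2-Ab1, had 0.894 and 0.779 RPKM in B7-H4-null and 0.553 and 3.11 RPKM in wild type. In reads these were 9 and 9 in B7-H4-null and 6 and 33 in wild type, so wild type replicate 2 stood above the other 3 libraries. The gene reached 1 RPKM in wild type replicate 2 only and was not tested in the main fit, and with no filter its log2 difference was −0.46 (adjusted p = 0.772, limma). H2-Ab1 exceeded its partner in every library, by 16.5 and 24.6 times in B7-H4-null and by 23.4 and 6.63 times in wild type.

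H2-Eb1 (gene ID 14969, on chromosome 17 from 34305867 to 34316674), the other beta chain, had 0.382 and 0.222 RPKM in B7-H4-null and 0.177 and 0.362 RPKM in wild type. That is 10 reads in B7-H4-null and 9 in wild type, and per total the B7-H4-null value was 1.10 times the other, with exact 95% bounds of 0.403 and 3.07, so a difference of 2 times in either direction was not detectable at this depth. C57BL/6 mice carry a deletion in the promoter of H2-Ea, which encodes the matching alpha chain, and H2-Ea had 0 reads in every library. H2-Eb2, a related beta chain gene, had 3 and 3 reads in B7-H4-null and 3 and 2 reads in wild type.

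Cd74 (gene ID 16149, on chromosome 18 from 60803849 to 60812652), which in presenting cells is among the most abundant transcripts, had 0.450 and 1.11 RPKM in B7-H4-null and 1.53 and 0.925 RPKM in wild type. The genotypes overlapped, and the level of all 4 libraries together rested on 23 reads in B7-H4-null and 35 in wild type. Its log2 difference was −0.34 with a 95% interval of −1.11 to 0.44 (adjusted p = 0.713, limma), and it was −0.06 without B7-H4-null replicate 1. The mean of Cd74 lay above that of 1.72% of the tested genes, while H2-Ab1 was 8.46 to 32.8 times as high in the same libraries.

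Ciita (gene ID 12265, on chromosome 16 from 10480014 to 10531064) had 0 and 2 reads in B7-H4-null and 1 and 0 reads in wild type, or 0 and 0.0325 RPKM and 0.0173 and 0 RPKM. Over all 4 libraries these 3 reads correspond to 0.0131 RPKM, with an exact 95% Poisson interval of 0.00270 to 0.0382 RPKM for counting error. A library with 0 reads allows up to 3 reads, which is 0.0487 to 0.0559 RPKM for Ciita. The gene was thus below H2-Eb1 in every library, and no comparison between the genotypes was possible at this depth. Dexi shares 111 of the exon bases of Ciita on the opposite strand, at 5.27 and 3.26 RPKM in B7-H4-null and 1.99 and 4.35 RPKM in wild type.

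The order of mean levels, all per kilobase, was H2-DMa, H2-DMb1, H2-Ab1, H2-Oa, H2-DMb2, H2-Ob, H2-Aa, Cd74, H2-Eb1 and Ciita. Neighbours in this order did not overlap over the 4 libraries except in 3 places. H2-Ab1 lay above H2-Oa in 3 of 4 libraries, H2-Ob above H2-Aa in 3 of 4 and H2-Aa above Cd74 in 2 of 4. The order of these neighbours is not settled by 4 libraries.

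The genes of factors that bind class II promoters were expressed in every library. Of the 16 listed promoter factors and inducers, 15 were tested and 0 passed with limma, while 1, Ifngr2, had an unadjusted p under 0.05. For 9 of the 15 the B7-H4-null values were both below the wild-type values, and for 0 both above, with a median log2 difference of −0.27. That count of 9 stands beside a background of 28.0%, and with median-ratio scaling the median was −0.17. Of the RFX complex, Rfx5 had 5.93 and 5.05 RPKM in B7-H4-null and 8.38 and 6.01 RPKM in wild type, and Rfxank, the most abundant subunit, had 24.1 ± 0.954 RPKM in B7-H4-null and 29.3 ± 2.96 RPKM in wild type (SD, n = 2 each). Rfxap had 8.20 and 8.90 RPKM in B7-H4-null and 10.99 and 12.6 RPKM in wild type, a log2 difference of −0.42 (adjusted p = 0.549, limma). The NF-Y subunit genes Nfya, Nfyb and Nfyc lay between 12.1 and 20.7 RPKM in every library.

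Interferon gamma is the best known inducer of Ciita outside B cells and dendritic cells, and its receptor and signalling genes were expressed. Ifngr2, the signalling chain of the receptor, had 14.0 and 17.4 RPKM in B7-H4-null and 25.5 and 36.1 RPKM in wild type, with a log2 difference of −0.91 ± 0.281 (SE, unadjusted p = 0.0148, adjusted p = 0.320, limma). Both B7-H4-null libraries were below both wild-type libraries, and the gene did not pass over all genes. Ifngr1, the ligand-binding chain, overlapped, with 152 and 287 RPKM in B7-H4-null and 252 and 225 RPKM in wild type. Spi1, a myeloid transcription factor, had 203 and 308 RPKM in B7-H4-null and 327 and 421 RPKM in wild type (adjusted p = 0.529, limma). Jak2, a kinase of the receptor, had 15.8 and 14.4 RPKM in B7-H4-null and 17.3 and 26.4 RPKM in wild type, and Irf1, a target of the pathway, had 60.9 and 21.0 RPKM in B7-H4-null and 30.7 and 18.7 RPKM in wild type. Irf1 overlapped between genotypes, and B7-H4-null replicate 1 was its highest library.

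**Figure D3:**
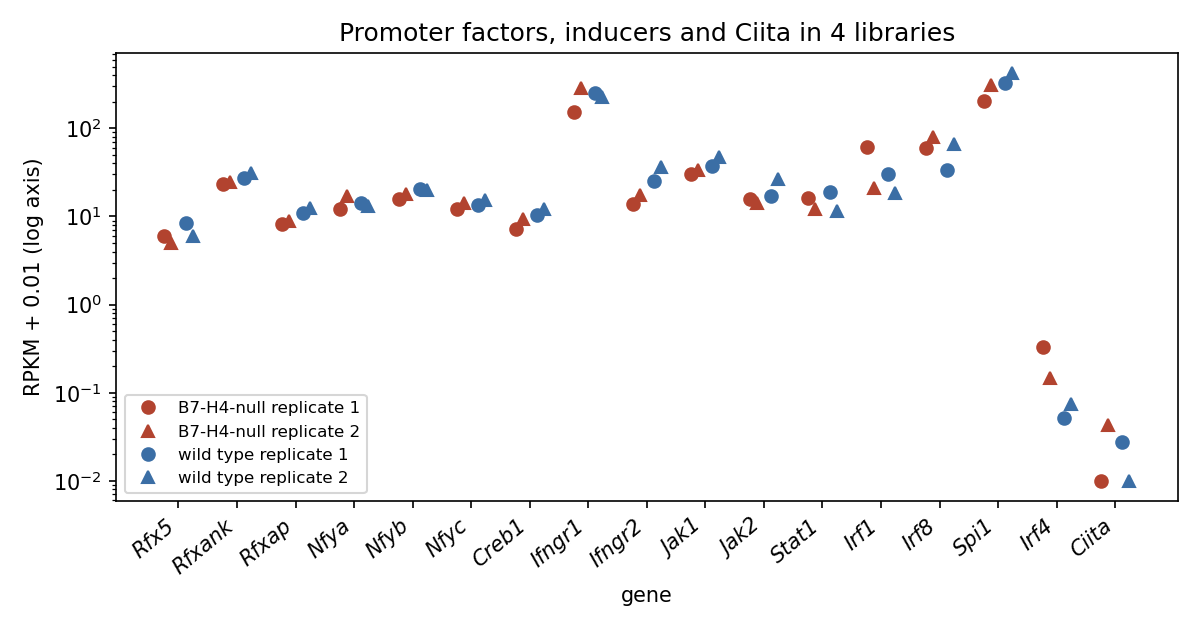
RPKM plus 0.01 on a log axis for genes of class II promoter factors, of interferon gamma signalling and of Ciita, with B7-H4-null libraries in red left of wild-type libraries in blue, circles for replicate 1 and triangles for replicate 2. All genes except Irf4 and Ciita stood above 5 RPKM in every library.

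Of the genes that limit class II, 4 of 5 listed were tested and 0 passed with limma. At an unadjusted p under 0.05, 1 was higher and 2 were lower, against 5.05% and 7.20% of all tested genes. Socs1, a feedback inhibitor of Jak kinases, had 43.2 and 13.3 RPKM in B7-H4-null and 8.40 and 5.61 RPKM in wild type, a log2 difference of 1.68 (unadjusted p = 0.0156, adjusted p = 0.322). Marchf8, a ubiquitin ligase that acts on membrane proteins, had 3.90 and 5.40 RPKM in B7-H4-null and 9.33 and 7.95 RPKM in wild type (log2 difference −0.78, adjusted p = 0.336, limma). Bcl6, a transcriptional repressor, had 2.13 and 1.75 RPKM in B7-H4-null and 3.78 and 6.04 RPKM in wild type (log2 difference −0.98, adjusted p = 0.319, limma). For these 3 genes the genotypes did not overlap, as for 16.0% of all tested genes on the higher side and 28.0% on the lower side. Marchf1, the ligase known to clear class II from the surface of presenting cells, overlapped, with 2.84 and 4.79 RPKM in B7-H4-null and 2.78 and 9.35 RPKM in wild type.

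The proteases and reductase of the endosome, where class II is loaded, were mostly abundant, with Lgmn and Ctse as exceptions. Lgmn had 0.340 and 2.22 RPKM in B7-H4-null and 0.947 and 4.19 RPKM in wild type. Ctse had 8.16 and 6.59 RPKM in B7-H4-null and 4.37 and 7.41 RPKM in wild type. All 10 listed genes were tested, 0 passed with limma and 0 had an unadjusted p under 0.05, and the median log2 difference was −0.03. Ctss, the protease that trims the invariant chain in presenting cells, had 18.2 and 90.8 RPKM in B7-H4-null and 28.9 and 191 RPKM in wild type. Replicate 2 exceeded replicate 1 by 4.99 times in B7-H4-null and 6.60 times in wild type, and the genotypes overlapped. Ctsl, a related protease, had 381 and 69.1 RPKM in B7-H4-null and 57.7 and 41.2 RPKM in wild type, and B7-H4-null replicate 1 stood apart there (unadjusted p = 0.0501, adjusted p = 0.408, limma). Both B7-H4-null values of Ctsl lay above both wild-type values, as for 16.0% of all tested genes. Ifi30, a thiol reductase of the endosome, had 167 and 267 RPKM in B7-H4-null and 94.1 and 247 RPKM in wild type. Ctsz, another endosomal protease, had 279 and 416 RPKM in B7-H4-null and 225 and 302 RPKM in wild type.

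Several members differed between replicates in the same order in both genotypes. H2-DMa, H2-DMb1, H2-DMb2 and H2-Ab1 were all higher in replicate 2 than in replicate 1, by 1.30, 1.28, 1.31 and 1.30 times in B7-H4-null and by 1.43, 1.70, 1.196 and 1.59 times in wild type. Irf8, a transcription factor of monocyte and dendritic cell development, was 1.33 times as high in replicate 2 of B7-H4-null and 1.96 times in replicate 2 of wild type, and Ifi30 was 1.60 and 2.63 times as high. Cd14 and Csf1r, monocyte markers, were also higher in replicate 2, Cd14 by 2.62 times in B7-H4-null and 3.53 times in wild type, and Csf1r by 1.71 and 1.73 times. H2-Ob did not follow this order, at 0.910 times in B7-H4-null and 0.990 times in wild type. Nor did H2-Oa, at 0.712 and 1.59 times, or Cd74, at 2.47 and 0.603 times. H2-Aa, at 0.871 and 5.62 times, and H2-Eb1, at 0.581 and 2.04 times, also departed from it, on few reads. Ciita had too few reads to compare. How many of all tested genes share the order was not counted. A shared number does not pair the libraries by the labels, and the part of monocyte-lineage cells in these levels was not tested.

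**Figure D4:**
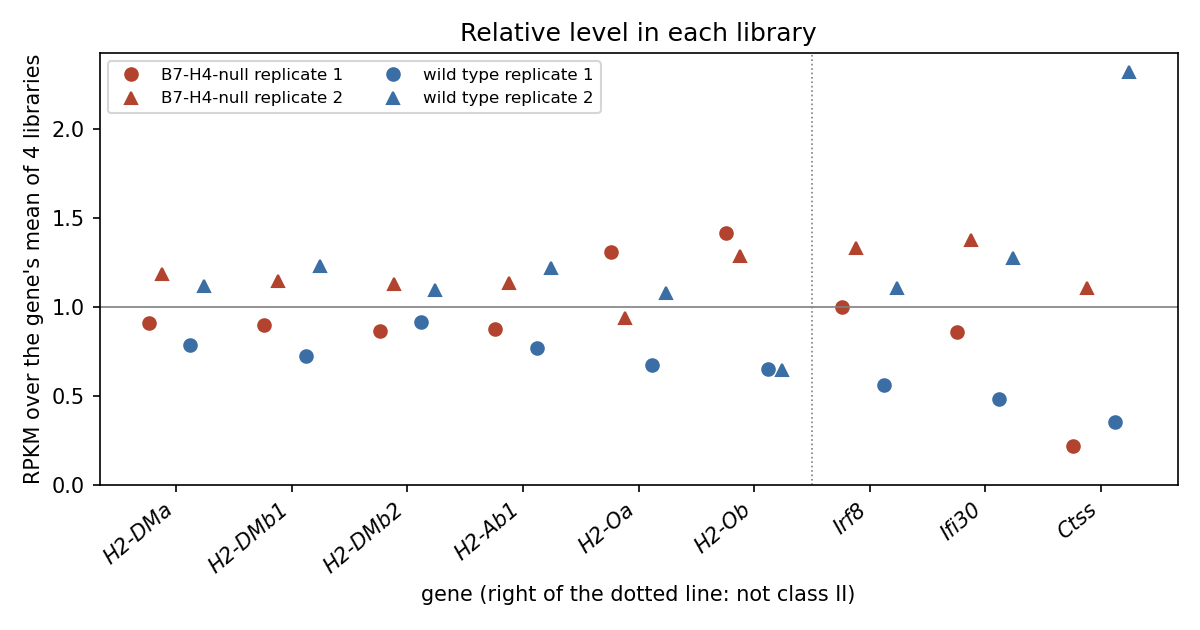
RPKM of each library over the gene's mean of all 4 libraries, with B7-H4-null libraries in red left of wild-type libraries in blue, circles for replicate 1 and triangles for replicate 2. Triangles lie above circles of the same colour for H2-DMa, H2-DMb1, H2-DMb2, H2-Ab1, Irf8, Ifi30 and Ctss, and for H2-Ob the red marks lie above the blue ones.

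Markers of cell types known for class II were mostly near 0. Of 13 B cell markers, 10 were under 1 RPKM in every library and Pax5 had 0 reads throughout, while Ms4a1 had 1 read, in B7-H4-null replicate 2, over all 4 libraries. The exceptions were Cd79b, at 58.7 and 60.7 RPKM in B7-H4-null and 35.4 and 45.5 RPKM in wild type, and Ighm, at 61.1 and 68.7 RPKM in B7-H4-null and 21.4 and 9.99 RPKM in wild type, with Vpreb3 at 2.82 RPKM in B7-H4-null replicate 1. Ighm and Cd79b, like H2-Ob, were higher in each B7-H4-null library, and did not pass (adjusted p = 0.143 and 0.444, limma). Cd79a, whose product pairs with that of Cd79b, had 2 and 8 reads in B7-H4-null and 13 and 8 reads in wild type, or 0.1600 and 0.557 RPKM and 0.966 and 0.607 RPKM, and was lower in each B7-H4-null library. The summed level of the 13 B cell markers was 123 and 131 RPKM in B7-H4-null and 58.5 and 57.3 RPKM in wild type, nearly all of it from Ighm and Cd79b, and its part in the H2-Ob values was not tested.

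Of 12 markers of conventional dendritic cells, 10 were under 1 RPKM in every library, Ccl22 had 0 reads, and Zbtb46 and Clec9a stayed under 0.3 RPKM. Their summed level was 5.98 and 4.99 RPKM in B7-H4-null and 5.42 and 4.94 RPKM in wild type. Of 9 plasmacytoid dendritic cell markers, 7 were under 1 RPKM in every library and Klk1 had 0 reads, while Tcf4, which is also used outside that lineage, had 24.5 and 37.5 RPKM in B7-H4-null and 3.45 and 11.8 RPKM in wild type (adjusted p = 0.2505, limma). With Bst2 at 33.3 to 69.4 RPKM, the plasmacytoid list summed to 70.6 and 109 RPKM in B7-H4-null and 37.8 and 53.0 RPKM in wild type, and its part in the H2-Ob values was not tested. Of 12 macrophage markers, 8 were under 1 RPKM in every library, and of 11 T and NK cell markers 10 were, Nkg7 being the exception. The macrophage list summed to 143 and 32.2 RPKM in B7-H4-null and 135 and 53.5 RPKM in wild type. The T and NK cell list summed to 22.5 and 40.2 RPKM in B7-H4-null and 32.8 and 30.3 RPKM in wild type.

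In wild type replicate 2, where H2-Aa was highest, the B cell and conventional dendritic cell markers summed to 57.3 and 4.94 RPKM. The next lowest sums were close, at 58.5 RPKM in wild type replicate 1 and 4.99 RPKM in B7-H4-null replicate 2. Single markers of both lists differed in which library was highest. Cd22, Xcr1 and Batf3 were highest in wild type replicate 2, with 27, 13 and 4 reads, against at most 9, 6 and 1 in any other library. Ighm was lowest there, and other markers, among them Cd79b, Mgl2, Clec10a and Zbtb46, were highest in other libraries. The part of these markers in the H2-Aa value was not tested. The 5 tested genes closest in pattern to the mean of H2-Ab1 and Cd74, the tested genes among the presenting chains and Cd74, were also sought. Members, IDs without a symbol, pseudogenes and gene models with Gm, Rik, number or clone names were passed over. The 5 genes found were Prpf4, Moap1, Cnot9, Atp6ap1 and Vti1b, at distances of 0.0270 to 0.0330 between log2(RPKM + 1) values centred on each gene's mean of the 4 libraries. In wild type replicate 1, H2-Ab1 was at its lowest, 12.97 RPKM, and Cd74 at its highest, 1.53 RPKM. The mean of the pair therefore follows neither gene alone, and closeness to it does not show a shared pattern with class II genes.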

How the data were processed

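RNA-seq was measured in 4 sorted samples. TopHat2 2.0.12 and GRCm38 are named in the submitters' processing notes. The program that counted the reads, with its annotation and strand, was not given in the sources used here. The authors deposited 1 table of RPKM values with a column per library. The unit was taken from the values, since low values of a gene are whole multiples of 1 step. From these steps the library totals and the gene lengths were recovered, with exon lengths of RefSeq-paired GENCODE transcripts fixing the multiple. Whole reads, within 0.01 read, resulted for 14587 (99.9%) of the 14608 genes that no library lists at 0. Floors of 3 reads and exact intervals cover counting error only.

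Gene IDs were named from the NCBI table of GRCm38.p6 (25275 IDs) and from GENCODE vM21 (18 IDs), 1886 had no symbol, and coordinates are those of the NCBI table. The filter kept 12107 genes, 7 of the 10 members among them, that reached 1 RPKM in 2 or more of the 4 libraries. H2-Aa, H2-Eb1 and Ciita did not reach this. Genotypes were compared with limma 3.58.1 (R 4.3.3) on log2(RPKM + 1) with 1 term, genotype, with a mean-variance trend and with Benjamini-Hochberg adjustment over all tested genes at 0.05. On this scale the change of low genes is understated. No label ties the samples to separate mice. The p-values therefore reflect the spread among these samples alone, possibly a technical one.

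The members, the gene lists and the tests were chosen with earlier results of these data known. All members are named whatever their values. Of each list up to 4 tested genes with the smallest p are named, and cell type markers at a mean of 5 RPKM or more may be added. The 5 genes nearest in pattern, after the exclusions stated with them, are given. Other genes were named after their values were seen. Some listed genes are not reported here by name.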

Additional observations from a re-analysis of the deposited data

How the results depend on the processing

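Under all 12 alternatives tried, 0 class II members were called. The 7 tested members gave 82 values under these alternatives, of which 72 kept their sign and 10 did not. Leaving out 1 library each gave −0.28 to 0.35 for H2-Ab1, −0.11 to 0.40 for H2-DMa, −0.27 to 0.48 for H2-DMb1 and −0.18 to 0.15 for H2-DMb2, whose value was 0.07 with median-ratio scaling and 0.09 with quantile normalization. H2-Oa ranged from 0.04 to 0.65 and Cd74 from −0.61 to −0.06, so that both came close to 0 without 1 library, and Cd74 was −0.70 with voom. H2-Ob ranged from 0.63 to 0.73. These 3 did not change sign in the alternatives that could be run. H2-Ob and Cd74 were below the filter at 5 RPKM. H2-Ob lay at an unadjusted p under 0.05 with all 4 libraries in each fit that tested it and above 0.05 (0.0742 to 0.111) without any 1 of them.

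Over all genes, 5 higher and 7 lower became 0 and 0 with no filter and 12 and 9 with the replicate block. Without 1 library each they ranged from 0 to 36 higher and 0 to 20 lower: leaving out wild type replicate 1 gave 36 and 20, leaving out replicate 2 of that genotype 20 and 9, and leaving out either B7-H4-null library 0 and 0 (937 and 1476 genes at an unadjusted p under 0.05). The block changed no call of a member. Same-numbered libraries deviated together with r = 0.247 across genes, from only 2 pairs, and the labels do not state a pairing.

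List medians moved by more than the spread between replicates in some settings. With 1 library left out the ranges were −0.12 to 0.40 for the members, −0.35 to −0.23 for the promoter factors and inducers, −0.91 to −0.19 for the limiting genes, −0.31 to 0.39 for endosomal processing, −0.19 to 0.61 for monocyte markers, −1.75 to −1.16 for neutrophil genes and −0.69 to −0.26 for the sort markers. The promoter factors had −0.17 with median-ratio scaling, and the limiting genes 0.45 with the filter at 5 RPKM, where fewer genes were left. Conventional dendritic cell markers had 0.20 with median-ratio scaling, 0.19 with quantile normalization, 0.26 with a pseudocount of 0.1 and 0.28 with voom. Neutrophil genes had −1.75 with the filter at 5 RPKM, −1.68 with a pseudocount of 0.1 and −1.72 with voom. The cause of these changes was not tested. Depth limits H2-Eb1 and Ciita most, with 19 and 3 reads in all.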
